A study of Mus musculus with 22 samples.

Results

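Granulosa and cumulus cells are the somatic cells that surround the oocyte in the ovarian follicle, and they stay in contact with it through fine projections until it is stripped for RNA isolation. This report follows 10 genes known as markers of these cells in RNA from fully-grown germinal vesicle (GV) mouse oocytes, namely Has2, Amh, Inha, Inhba, Fshr, Cyp19a1, Foxl2, Npr2, Kitl and Ptx3. The genes were chosen by symbol, as a measure of RNA from adhering somatic cells and of its relation to genotype, and the choice used the low Has2 level already seen in Dicer dMT/dMT oocytes. They are 10 of the 52636 genes in the deposited table, and values of all 22 samples were used, each sequencing run apart.

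Granulosa cells divide and make estradiol under follicle-stimulating hormone, and they secrete inhibins, activins and anti-Müllerian hormone. Cumulus cells, the layer next to the oocyte, hold it in meiotic arrest through natriuretic peptide signalling and supply it with Kit ligand. After the ovulatory hormone surge they build a matrix of hyaluronan around the oocyte, for which Has2 makes the hyaluronan and Ptx3 is one of the proteins that hold it together.

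All mice were C57BL/6. Each RNA preparation was made from a pool of GV oocytes, and the methods describe both superovulated and non-stimulated females without saying which gave a given sample. The single-end run held wild type (Dicer WT/WT, n = 3), Dicer dMT/WT (n = 1), Dicer dMT/dMT (n = 4) and Dicer SOM/SOM (n = 3), with no age given in the labels. The dMT allele lacks the main retrotransposon-derived promoter of the short oocyte form of Dicer. According to the paper, another retrotransposon insertion in the same intron can still give a short form in dMT/dMT oocytes. The SOM allele, which came from 1 embryonic stem cell line, encodes only tagged full-length Dicer because introns were removed from it. Both alleles are carried in every cell of the animal, so that the follicle cells share the oocyte's genotype. The paired-end run crossed this allele with Mili DAH. It held controls heterozygous for both (Dicer SOM/WT with Mili DAH/WT, n = 4), a piRNA mutant (Dicer SOM/WT with Mili DAH/DAH, n = 1), RNAi mutants (Dicer SOM/SOM with Mili DAH/WT, n = 2) and double mutants (Dicer SOM/SOM with Mili DAH/DAH, n = 4), where DAH is a catalytically dead form of the piRNA protein MILI. Every animal of this run therefore carried at least 1 DAH and 1 SOM allele, the controls included. The controls were 36, 38, 10 and 17 weeks old, the double mutants 40, 35, 11 and 11, the RNAi mutants 17 and 13 and the piRNA mutant 16, so that the RNAi mutants had no counterpart over 35 weeks. Samples of a genotype with different ages came from different animals. The labels do not say this of the double mutants of 11 weeks or of the single-end samples. The p-values therefore measure only the spread between these samples.

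Sequencing depth was 47741738 to 90713013 counts in the single-end run, except for Dicer SOM/SOM replicate 3 with 6468380, and 22928936 to 43540806 in the paired-end run. Levels are given as CPM, the counts of a gene relative to the total of its library, after TMM scaling between libraries. In Dicer SOM/SOM replicate 3, 3 counts are worth 0.432 CPM. The oocyte label held in each sample, since the sum of 12 oocyte genes such as Zp3 and Gdf9 lay between 12608 and 16276 CPM. Dicer1 followed the genotypes, with 997 to 1048 CPM in wild type, 718 in Dicer dMT/WT, 428 to 533 in Dicer dMT/dMT and 41.6 to 54.4 in Dicer SOM/SOM. In the paired-end run it was 502 to 763 CPM in the controls, 596 in the piRNA mutant and 53.1 to 62.1 in the 6 Dicer SOM/SOM samples.

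The 10 genes were a small part of the oocyte RNA. Some samples stood out in several of them, since the 10-week control was the lowest control for Has2, Amh, Inha, Inhba, Fshr and Kitl, and Dicer SOM/SOM replicate 3 was the highest of its group for Amh, Inha and Inhba. Their summed level was 37.6 to 46.4 CPM in wild type, 42.1 in Dicer dMT/WT, 32.5 to 80.3 in Dicer dMT/dMT and 36.5 to 73.6 in Dicer SOM/SOM. The paired-end sums were 45.3 to 65.4 CPM in the controls, 36.4 in the piRNA mutant, 44.6 to 47.3 in RNAi mutants and 37.5 to 69.8 in double mutants. The ranges of the replicated mutant groups thus overlapped those of their controls, the single piRNA mutant lay below its controls, and Cyp19a1 and Inhba supplied most of every sum. In bulk RNA, fewer cells of a type and less RNA per cell cannot be told apart.

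Compared per kb of exon, the order of the genes was similar in both runs. Cyp19a1, the aromatase that converts androgens to estrogens, was highest, with a median of 8.09 CPM per kb in the paired-end run and of 8 in the single-end run. It exceeded the next gene in 10 of 11 single-end and 11 of 11 paired-end samples. The inhibin and activin subunit genes followed. Inha had a median of 1.99 and Inhba of 1.35 CPM per kb in the single-end run, where Inha was higher in 7 of 11 samples, and the order was reversed in the paired-end run, with 2.21 for Inha and 2.46 for Inhba, Inhba being higher in 10 of 11. Kitl, the ligand of the oocyte receptor Kit, stood at 0.739 and 0.921 CPM per kb. Fshr, the receptor for follicle-stimulating hormone, stood at 0.389 and 0.613, and Amh, the anti-Müllerian hormone gene, at 0.308 and 0.223, and Fshr was the higher of these neighbours in 6 of 11 single-end and 9 of 11 paired-end samples. Npr2, the receptor through which natriuretic peptide C acts, Foxl2, a transcription factor that maintains granulosa cell identity, and Has2 formed the bottom of the order, with medians of 0.0609 to 0.148 CPM per kb. Their order was not firm, since Foxl2 exceeded Has2 in 7 of 11 single-end samples and Has2 exceeded Foxl2 in 6 of 11 paired-end samples.

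**Figure D1:**
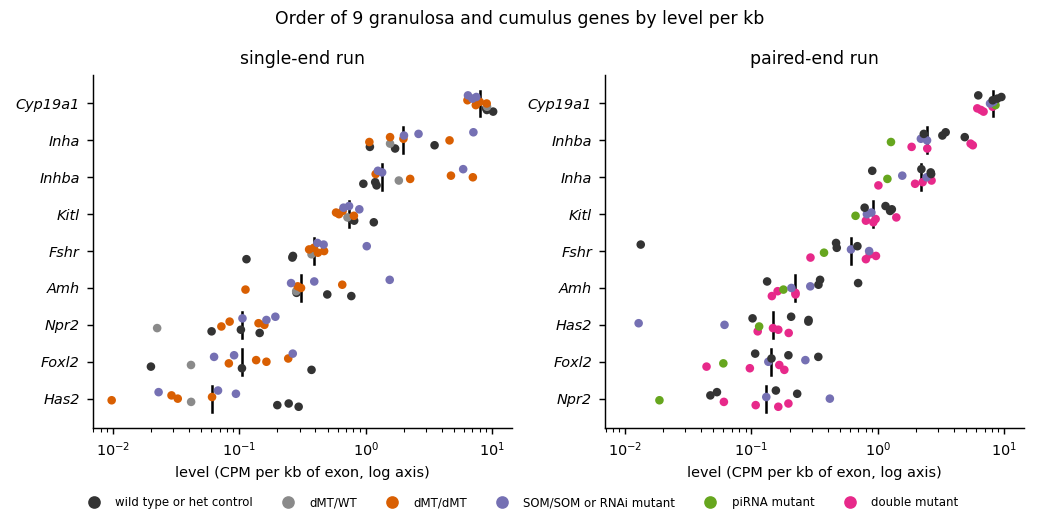
Level of 9 genes per kb of exon length (horizontal log axis, CPM per kb) in the 11 samples of each run, where each point is a sample coloured by genotype and the vertical bar is the median over samples. Cyp19a1 is highest with the tightest points, with medians of 8 and 8.09 CPM per kb, and Has2 lies at 0.0609 in the single-end run and 0.148 in the paired-end run. Ptx3, at 0 in most samples, is left out.

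Ptx3 was at 0 in 20 of the 22 samples, with 10 counts in wild-type replicate 2 and 3 counts in RNAi mutant replicate 1. It did not pass the filter on low counts, so that 9 of 10 genes were tested in each run.

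Has2 encodes the hyaluronan synthase of expanding cumulus cells. The gene lies at chr15:56665627-56694539 on the minus strand (GRCm38), and 182 of its 4237 exonic bases overlap the antisense gene Has2os. Reads were counted without strand, so that the reads of the overlapping part cannot be assigned to either gene, but Has2os itself had at most 11.5 counts in any sample. Has2 had 84.5, 49.5 and 64 counts in wild type, which correspond to 1.25, 0.846 and 1.04 CPM. In Dicer dMT/dMT it had 0.0414, 0.138, 0.258 and 0.123 CPM, from 2 to 16 counts. The highest of these 4 values was below the lowest of wild type, with a mean of 0.14 ± 0.0894 CPM (SD, n = 4) or 13.4% of the wild-type mean of 1.05 ± 0.202 (SD, n = 3), and a fitted log2 fold change of -2.86 (SE 0.52). This contrast is the one on which the genes were selected, so that no p is given for the members in it. Of the 23151 genes tested in it, 15.4% were called changed by edgeR's quasi-likelihood test at an adjusted p under 0.05, and of the 9 members tested only Has2 was called, a count from which nothing is read.

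In Dicer SOM/SOM, Has2 was 0.399, 0.0974 and 0.288 CPM, the last of these from 2 counts. All 3 samples were below the 3 wild-type samples, with a mean of 0.261 ± 0.152 CPM (SD, n = 3) or 25% of wild type. Has2 fell by 2.05 on the log2 scale (SE 0.60, adjusted p = 0.0253, edgeR quasi-likelihood test with Benjamini-Hochberg adjustment). The wild-type samples are those of the selecting contrast, so that the low level here is not independent of it. The call was lost without Dicer SOM/SOM replicate 2, with an adjusted p of 0.0848 and a log2 fold change of -1.47, without wild-type replicate 1 (adjusted p = 0.0702) and without wild-type replicate 3 (adjusted p = 0.0549, edgeR). An exact permutation test of Has2 alone gave p = 0.1 (two-sided), the smallest that 3 against 3 samples allow. Between Dicer SOM/SOM and Dicer dMT/dMT, which share the dMT/dMT samples with the selecting contrast, the ranges overlapped and the log2 difference was 0.81, with an interval (± 1.96 SE) of -0.37 to 1.99 (edgeR, adjusted p = 0.467).

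The single Dicer dMT/WT oocyte sample, which is heterozygous, had 15 Has2 counts, or 0.176 CPM with an exact Poisson interval of 0.0987 to 0.291 (95%, counting error only). This is 16.9% of the wild-type mean, below all 3 wild-type samples and inside the Dicer dMT/dMT range. Of the other members, Npr2 was also below the wild-type range in this sample. Kitl at 4.06 CPM (interval 3.64 to 4.51) and Amh at 0.47 CPM (interval 0.336 to 0.641) could not be told from the lower ends of their ranges, at 4.33 and 0.475. Inhba at 11.7 CPM and Fshr at 0.776 CPM were above the wild-type range, and 4 members lay within it. Of all genes tested, 56.9% lay outside the wild-type range in this sample and 27.7% below it. With 1 sample there is no test.

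The genes were chosen with earlier results of these data known, although the choice cited no value of the paired-end run. There, Has2 was 1.19, 1.2, 0.43 and 0.873 CPM in the controls, in the order of ages given above, and 0.259 and 0.0543 CPM in the RNAi mutants, from 6 and 2 counts. Both RNAi mutants were below all 4 controls. Has2 fell by 2.64 on the log2 scale in RNAi mutants (SE 0.70, adjusted p = 0.0251, edgeR), with a mean of 0.157 ± 0.145 CPM (SD, n = 2) against 0.924 ± 0.363 (SD, n = 4). It was the only one of 9 members tested that was called, where 10.7% of the 20989 genes tested were called. The call rested on few samples: without RNAi mutant replicate 2 the log2 fold change was -1.80 and the adjusted p 0.27, and without replicate 1 they were -4.00 and 0.0272 (edgeR). Without the 36-week or the 38-week control the log2 fold change was -2.49 in either case, with an adjusted p of 0.0578 and 0.0524 (edgeR). With a block for the replicate number it was -2.66 and the call was lost (adjusted p = 0.122, edgeR). Age differed between these groups, and its part in the Has2 difference was not tested. The older controls had 1.2 CPM on average and the younger 0.652, while the older double mutants had 0.655 and the younger 0.657. With only animals under 20 weeks, which left 2 controls and 2 RNAi mutants, the log2 fold change was -2.12 (adjusted p = 0.193, edgeR). With age as a term it was -2.37 (adjusted p = 0.0679, edgeR). The exact permutation test of Has2 alone gave p = 0.133, the smallest that 2 against 4 samples allow.

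In double mutants Has2 was 0.836, 0.474, 0.689 and 0.626 CPM, in the order of ages 40, 35, 11 and 11 weeks. These values lay inside the control range, with a mean of 0.656 ± 0.15 CPM (SD, n = 4) or 71% of the control mean. The log2 fold change against the controls was -0.50, with an interval of -1.38 to 0.39 (edgeR, adjusted p = 0.497), and the exact permutation test gave p = 0.343. All 4 double mutants were higher than both RNAi mutants, which carry the same Dicer SOM/SOM genotype, with a log2 difference of 2.14 and an interval of 0.79 to 3.50. It was 1.32 without RNAi mutant replicate 2 and 3.52 without replicate 1. After adjustment over all genes this difference was not called (edgeR, adjusted p = 0.524, unadjusted p = 0.00809). The comparison uses the RNAi mutants of the preceding one. The piRNA mutant had 0.487 CPM, with an exact Poisson interval of 0.297 to 0.792, inside the control range.

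**Figure D2:**
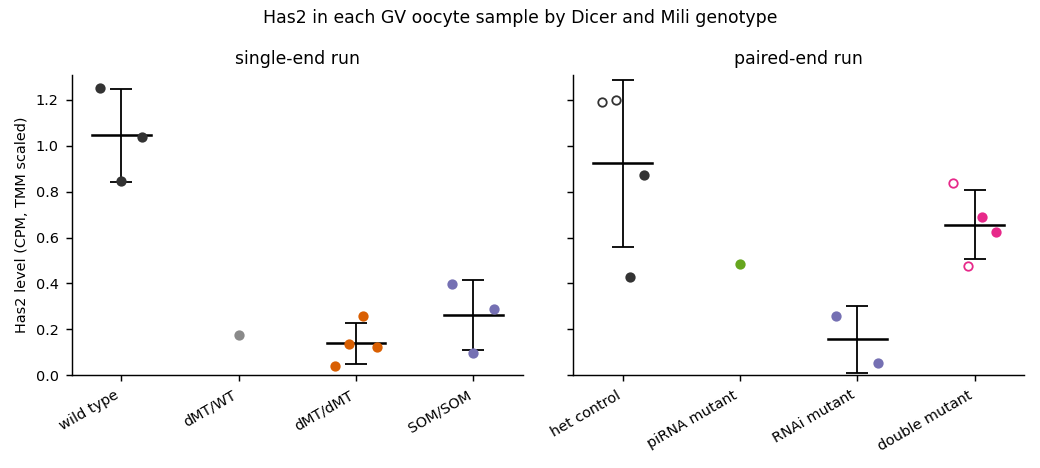
Has2 level (vertical axis, TMM-scaled CPM) in each GV oocyte sample by genotype, in the single-end run on the left and the paired-end run on the right. Points are samples, open points are animals of 35 weeks or over, horizontal bars are group means and error bars are SD. The wild-type samples at 0.846 to 1.25 CPM lie above the 8 other single-end samples, and the RNAi mutants at 0.0543 and 0.259 CPM lie below the other 9 paired-end samples.

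Few other members were called. Against wild type, 3 of 9 members tested were called in Dicer SOM/SOM, where 28.6% of all genes tested were called. Besides Has2 these were Fshr, which was higher, and Cyp19a1, which was lower. Against Dicer dMT/dMT 0 of 9 were called by edgeR (7.35% of all genes) and 0 by DESeq2, and 0 passed at an unadjusted p under 0.05, which 23.3% of all genes did, the smallest being that of Fshr (0.0706). In double mutants 0 of 9 were called, by edgeR and by DESeq2, against the controls (21.2% of all genes) and against RNAi mutants (0.314% of all genes). At an unadjusted p under 0.05, 0 of 9 members passed against the controls, where 32.9% of all genes did, and 1, Has2, passed against RNAi mutants, where 4.78% did.

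**Figure D3:**
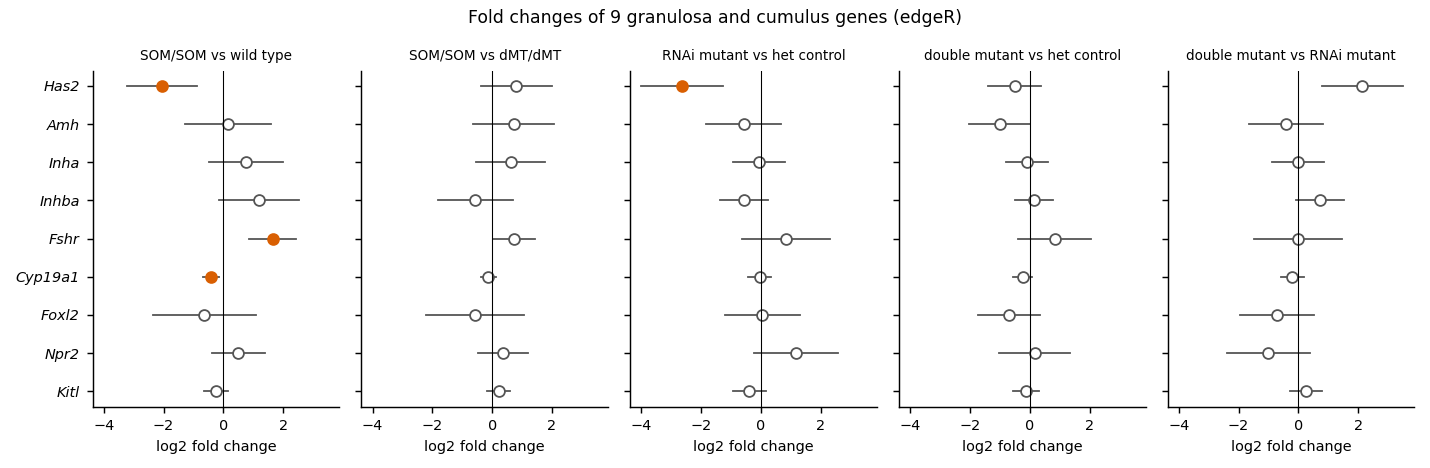
Log2 fold changes (horizontal axes) of 9 members in 5 comparisons, from edgeR fits across all genes, with lines of 1.96 SE to either side. Filled points have an adjusted p under 0.05, namely Has2 at -2.05, Fshr at 1.65 and Cyp19a1 at -0.42 in Dicer SOM/SOM against wild type and Has2 at -2.64 in RNAi mutants against controls. The contrast used to select the genes is not drawn.

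Fshr (chr17:88985170-89200612, minus strand, GRCm38) was 0.237, 0.547 and 0.554 CPM in wild type and 2.13, 0.966 and 0.863 CPM in Dicer SOM/SOM. All 3 mutant samples were above the 3 wild-type samples, by 1.65 on the log2 scale (SE 0.40, adjusted p = 0.0106, edgeR), and without Dicer SOM/SOM replicate 1 the log2 fold change was 1.07 and the call was lost (adjusted p = 0.0679). In Dicer dMT/dMT it was 0.742 to 0.975 CPM, also above wild type. In the paired-end run Fshr was 0.984, 1.43, 0.0277 and 0.97 CPM in the controls, 1.77 and 1.28 in RNAi mutants and 1.67, 0.61, 2.01 and 1.79 in double mutants. The 10-week control, with 1 count, was far below the rest, the groups overlapped, and the log2 fold changes of 0.84 in RNAi mutants (adjusted p = 0.565) and 0.83 in double mutants (adjusted p = 0.394, edgeR) were not called.

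Cyp19a1 (chr9:54165937-54193522, minus strand) had the narrowest spread of the members. It ranged from 15.7 to 25 CPM over the single-end run and from 15 to 23.3 over the paired-end run, with coefficients of variation of 15.5% and 14.5%, against 99.5% and 55.6% for Has2. Wild type had 25, 22.3 and 22 CPM and Dicer SOM/SOM 17.1, 18.4 and 15.8, all below wild type. The fall by 0.42 on the log2 scale (SE 0.13, adjusted p = 0.0377, edgeR) was small and close to the threshold, and it was called in 5 of 15 alternative fits. In RNAi mutants Cyp19a1 was 18.9 and 20.1 CPM and in double mutants 16.8, 16, 15 and 19.8, both inside or overlapping the control range of 15.3 to 23.3, with log2 fold changes of -0.037 and -0.24 (adjusted p = 0.939 and 0.325, edgeR).

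Promoter sequences of Fshr and Cyp19a1 are shown because these were the members called besides Has2. They are RefSeq windows on GRCm38.p6, from 250 bases before the transcription start to 50 after it, and 8 of the 10 members had at least 1 window, Has2 and Amh having none. The motifs searched, on both strands, were the E-box CACGTG, the cAMP response element TGACGTCA, the nuclear receptor core AGGTCA and the TATA box TATAAA, and none of these contains another. Capitals mark every match. The Fshr window (chr17:89200626-89200925, minus strand) holds an E-box that begins 61 bases before the start, and the Cyp19a1 window nearest to the counted gene (chr9:54193694-54193993, minus strand) holds TATA box letters that begin 157 and 143 bases before the start, on the opposite strand.
Fshr: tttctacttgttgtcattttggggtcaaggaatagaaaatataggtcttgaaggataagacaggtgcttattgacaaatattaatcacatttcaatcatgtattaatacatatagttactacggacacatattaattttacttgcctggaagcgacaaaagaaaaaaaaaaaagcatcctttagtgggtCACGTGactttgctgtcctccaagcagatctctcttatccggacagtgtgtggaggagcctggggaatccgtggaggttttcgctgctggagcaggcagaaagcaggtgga
Cyp19a1: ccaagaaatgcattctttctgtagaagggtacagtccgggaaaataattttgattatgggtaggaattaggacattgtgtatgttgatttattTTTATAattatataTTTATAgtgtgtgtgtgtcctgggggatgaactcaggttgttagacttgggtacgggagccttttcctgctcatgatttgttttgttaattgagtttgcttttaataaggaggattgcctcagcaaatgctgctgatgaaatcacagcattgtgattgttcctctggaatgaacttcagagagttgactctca
The E-box letters occurred in 7.15% of all 32851 windows and in that of no other member. TATA box letters occurred in 13.6% of all windows and in 4 of the 10 member windows, those of Kitl, Inhba and Cyp19a1. The nuclear receptor core occurred in 16.3% of all windows and in 1 window each of Inha and Cyp19a1, and the cAMP response element in 1.79% of all windows and in no member window.

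Among the secreted subunits, Inhba (chr13:16011851-16031621, plus strand), which encodes the beta A chain shared by activin A and inhibin A, was the most scattered. It was 7.77, 6.13 and 7.59 CPM in wild type, 14.4, 45.1, 30.2 and 7.68 in Dicer dMT/dMT and 8.66, 8 and 37.7 in Dicer SOM/SOM. Each Dicer SOM/SOM sample was above the wild-type samples, 2 of them narrowly, and the log2 fold change of 1.20 was not called (adjusted p = 0.223, edgeR). The high value came from replicate 3, the shallowest library, and without it the log2 fold change was 0.22. In the paired-end run Inhba was 31.1, 20.7, 14.7 and 22 CPM in the controls, 15.7 and 14 in RNAi mutants and 15.7, 11.8, 36 and 34.7 in double mutants. The double mutants split by age, with 13.8 CPM on average in the older and 35.3 in the younger animals. Their log2 fold change against the controls was 0.15 (adjusted p = 0.805) over all animals and 0.95 (adjusted p = 0.0384, edgeR) with only animals under 20 weeks, the 1 of 17 alternative fits in which it was called.

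Inha, the inhibin alpha chain, was 2.53, 1.59 and 5.18 CPM in wild type, 1.58, 6.8, 2.94 and 2.3 in Dicer dMT/dMT and 2.96, 3.87 and 10.5 in Dicer SOM/SOM. The groups overlapped, and the highest value was again that of Dicer SOM/SOM replicate 3 (73 counts). In the paired-end run Inha was 1.33 to 3.89 CPM in the controls, 2.31 and 3.58 in RNAi mutants and 1.48 to 3.93 in double mutants, nearly the same range in each. Amh was 0.475 to 1.29 CPM in wild type, 0.187 to 1.09 in Dicer dMT/dMT and 0.429 to 2.59 in Dicer SOM/SOM, the highest value being that of replicate 3 once more. In double mutants Amh was 0.243 to 0.373 CPM against 0.222 to 1.17 in the controls, and its log2 fold change of -1.0 was not called (adjusted p = 0.198, edgeR).

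**Figure D4:**
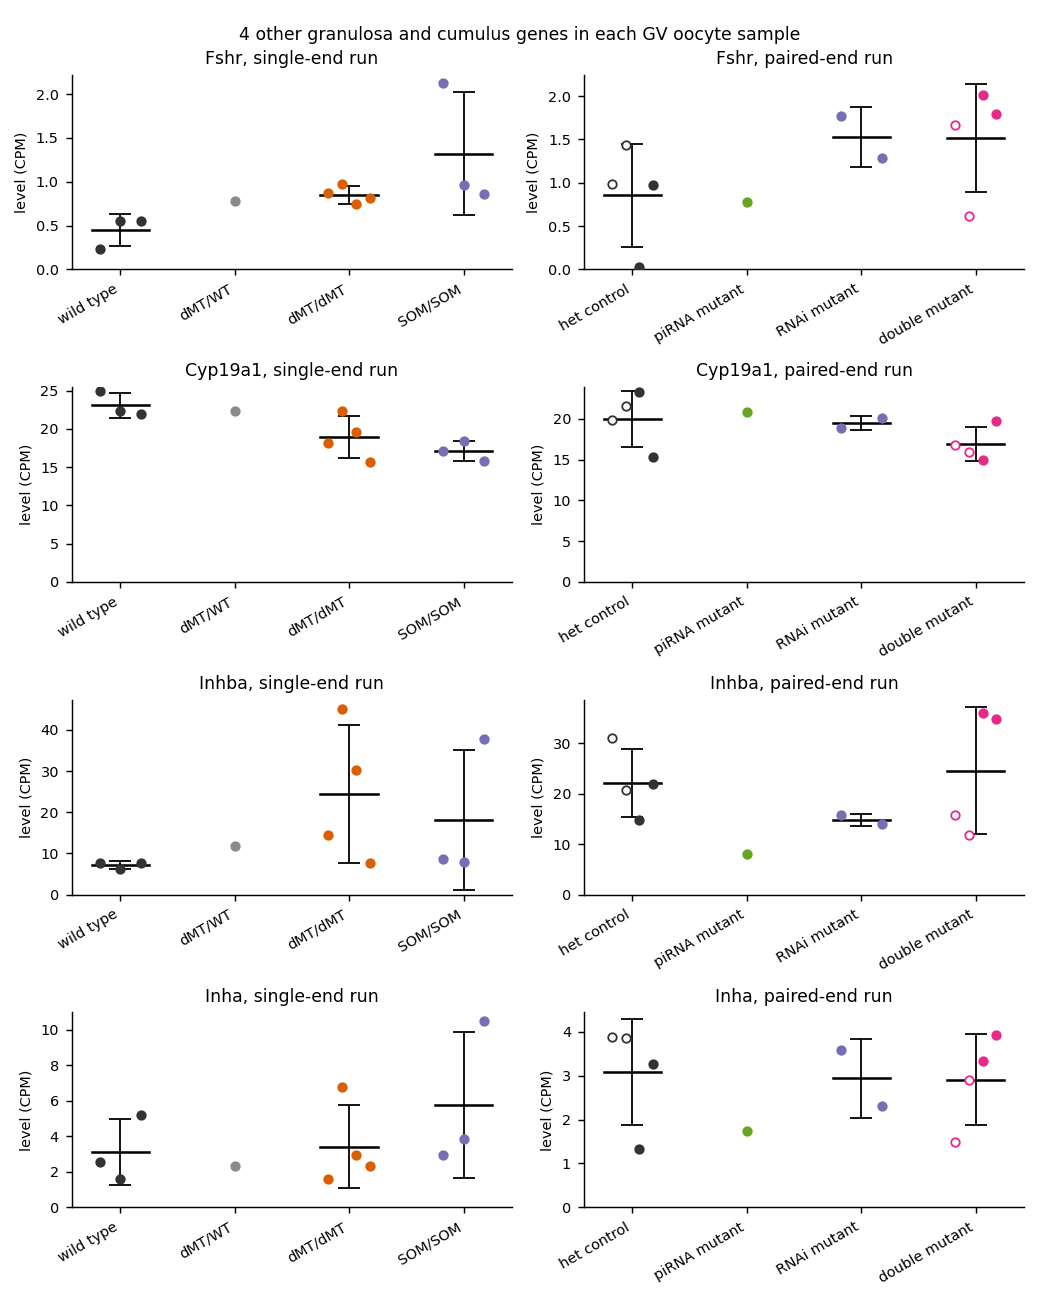
Levels of Fshr, Cyp19a1, Inhba and Inha (vertical axes, CPM, from 0) in each sample by genotype, for the single-end run on the left and the paired-end run on the right. Points are samples, open points are animals of 35 weeks or over, horizontal bars are means and error bars are SD. Cyp19a1 varies least, from 15 to 25 CPM over both runs, and the younger double mutants have the highest paired-end Inhba values, 36 and 34.7 CPM.

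The low genes with roles in arrest and cell identity overlapped between each replicated mutant group and its controls. Antisense or overlapping genes share 12 exonic bases with Foxl2 (Foxl2os) and 59 with Npr2 (Gm12473). Npr2 was 0.225 to 0.54 CPM in wild type and 0.395 to 0.719 in Dicer SOM/SOM, and it was 0.488 and 1.56 in RNAi mutants against 0.176 to 0.858 in the controls (log2 fold change 1.17, adjusted p = 0.361, edgeR). Foxl2 ranged from 0.0651 to 1.21 CPM within wild type alone, which is wider than the range of all other single-end samples. Kitl was steadier. It was 4.33 to 6.55 CPM in wild type, 3.29 to 4.56 in Dicer dMT/dMT and 3.77 to 5.03 in Dicer SOM/SOM, with 4.44 to 7.27 in the controls, 4.63 and 5.02 in RNAi mutants and 4.54 to 7.92 in double mutants, and the log2 fold changes of -0.24, -0.39 and -0.13 in the 3 comparisons with controls were not called (edgeR, adjusted p = 0.416, 0.454 and 0.738).

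Older and younger animals of a genotype were also set side by side. In the controls, Has2, Inha, Fshr and Kitl were higher in both older samples than in both younger ones. The 10-week control was the lowest for each of them, and for Fshr the 36-week and 17-week controls were nearly equal (0.984 and 0.97 CPM). In the double mutants Inha, Inhba, Fshr and Kitl were higher in both younger than in both older samples. Of all genes tested, 17.1% were higher in both older controls and 16.2% in both younger double mutants. The directions were opposite in the 2 genotypes for Inha, Fshr and Kitl, while Has2 overlapped in double mutants and Inhba in controls. With 2 samples per age and genotype this was not tested. The piRNA mutant was below the control range for Inhba (8.13 CPM), Foxl2, Npr2 and Kitl, and within it for the other 6 members. The Poisson interval of Inhba (7.22 to 9.12 CPM) ended below that range, while those of Foxl2, Npr2 and Kitl reached into it. Of all genes tested, 36.3% lay outside the control range in this sample and 18.6% below it. The 4 of 10 members outside the range are a share near the 36.3% of all genes. All 4 were below it, a direction from which nothing is read. The 10 include Ptx3, which was not among the genes tested.

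The patterns across samples are given as a description. Pearson's r of log2 CPM with Has2 ranged from -0.53 (Fshr) to 0.604 (Cyp19a1) over 10 single-end samples and from -0.171 (Cyp19a1) to 0.502 (Kitl) over 11 paired-end samples. The genes most like Has2 were Cxcr6 (r = 0.961), Coq4 (0.958) and Crabp2 (0.947) in the single-end run and Gm4342 (0.954), Gm1995 (0.895) and Gm48313 (0.885) in the paired-end run, with no gene in common. For Cyp19a1 they were Samd4, 4930583I09Rik and Nsun3, then Mzt2, Thoc3 and Timm8a2, and for Inhba Gm23624, Bicd1 and Plcb3, then Sult2a5, Btla and E030024N20Rik. These values describe samples that share a library kit and, within a group, a genotype.

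Hyaluronan and matrix genes that act with or beside Has2 differed widely in level, and the gene with the highest median of that list in each run was another hyaluronan synthase. Has3 was 66.4 ± 3.42 CPM in wild type (SD, n = 3) against 1.05 for Has2, and Has1 had a median of 0 in both runs. Of the 22 hyaluronan and matrix genes in the table, 9 had a median above 1 CPM in each run, among them the precursor enzymes Ugdh and Ugp2 and the hyaluronidases Hyal2 and Hyal3. The matrix linkers Tnfaip6 and Hapln1 were scarce. Tnfaip6 had at most 3 counts in every single-end sample and at most 0.158 CPM in the paired-end run. Hapln1 had at most 0.0725 CPM in the single-end run and was at 0 in every paired-end sample. The matrix gene Vcan had medians of 2.78 CPM in the single-end and 4.37 in the paired-end run. In Dicer SOM/SOM, 4 of the 15 tested were called, where 28.6% of all genes were, with Has3 lower at 44.2 ± 2.1 CPM (log2 fold change -0.59, adjusted p = 0.000826, edgeR) and Hmmr, a hyaluronan receptor that also binds the spindle, and Hyal2 higher, by 0.97 and 0.58 on the log2 scale (adjusted p = 0.000725 and 0.000944, edgeR). The remaining call was Hapln3, which was at 0 in wild type, so that mutant samples alone let it pass the filter on low counts. Has3 was 45.7 ± 3.16 CPM in Dicer dMT/dMT. In the paired-end run Has3 was 63.3 ± 12.6 CPM in the controls, 45.9 ± 5.14 in RNAi mutants and 48.5 ± 2.79 in double mutants, without a call (adjusted p = 0.151 and 0.0918, edgeR). Hmmr was higher by 0.86 in RNAi mutants and by 2.55 in double mutants, and Hyal3 by 1.50 and 1.49 (edgeR, adjusted p = 0.00337, 4.74e-08, 0.00327 and 0.000573). In double mutants 3 of 14 were called, or 21.4% against 21.2% of all genes, the other being Cemip, lower. Cemip had a median of 0 over the paired-end run and 0.387 ± 0.576 CPM in the controls, so that nothing is read from its call. In RNAi mutants 2 of 14 were called, or 14.3% against 10.7%. Between double and RNAi mutants 1 of 14 was called, where 0.314% of all genes were. This was Hmmr, at 113 ± 6.88 against 34.9 ± 5.33 CPM.

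The 12 genes of ovulatory cumulus expansion gave little signal apart from Egfr. Areg and Sult1e1 were at 0 in all 22 samples, Ereg was at 0 in all single-end samples, Pgr had a median of 0 in both runs, and only Ptgs2, Vcan and Egfr had medians above 1 CPM and passed the filter. Egfr, the receptor for the epidermal growth factor-like ligands of the surge, was 147 ± 10.9 CPM in wild type, 80 ± 7.52 in Dicer dMT/dMT and 55.4 ± 6.14 in Dicer SOM/SOM, a fall by 1.39 on the log2 scale in the last (adjusted p = 8.49e-06, edgeR). It was also lower in RNAi mutants (by 0.81, at 71.9 ± 4.62 CPM) and in double mutants (by 0.79, at 73.2 ± 13.1) than in the controls at 126 ± 15.3 CPM (edgeR, adjusted p = 0.01 and 0.00143). The RNAi mutant call was lost without either RNAi mutant, and the double mutant call with only animals under 20 weeks. Ptgs2, the prostaglandin synthase of the surge, was higher in double mutants, at 3.68 ± 0.952 against 1.33 ± 0.827 CPM (adjusted p = 0.0358, edgeR), and the call held in 9 of 17 alternative fits.

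Of 23 further granulosa and cumulus genes, 4 of the 21 tested were higher and none lower in Dicer SOM/SOM than in wild type, by edgeR at an adjusted p under 0.05, against 28.6% of all genes called. Their median log2 fold change was 0.58, with 0.017 over all genes. The 4 were the keratin gene Krt8, Star, which moves cholesterol into mitochondria, the transcription factor gene Gata4 and the estrogen receptor gene Esr2. Krt8 rose from 0.198 ± 0.0954 to 0.964 ± 0.362 CPM, Gata4 from 41.2 ± 3.71 to 95.6 ± 55.3 (log2 fold change 1.19, and 0.63 without Dicer SOM/SOM replicate 3) and Esr2 from 54.3 ± 1.22 to 89.2 ± 2.44 (SD, n = 3 each), while the call for Star held in 6 of 15 alternative fits. In RNAi mutants only Gata4 was called among the 19 tested (5.26%, against 10.7% of all genes), higher by 1.10 on the log2 scale (edgeR, adjusted p = 0.00644). In double mutants 2 of 19 were called (10.5%, against 21.2% of all genes). These were Gata4, higher by 0.77, and Nr5a2, an orphan nuclear receptor, lower by 0.49 on the log2 scale (edgeR, adjusted p = 0.0118 and 0.0388). The sum of the list, 617 to 981 CPM over all samples, was far above that of the 10 members, and Bmpr1b, with a median of 289 CPM in the single-end run and 448 in the paired-end run, was its highest gene. Of the 23 genes, 13 had a median above 1 CPM in the single-end run and 14 in the paired-end run. Others were at or near 0, with medians of 0 for Krt19 in both runs and of 0.0204 and 0.0246 CPM for Krt18. Nppc, the ligand of Npr2, had at most 3 counts in every paired-end sample, but a median of 0.154 CPM in the single-end run.

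Partners of the members include receptors for the ligands that they encode, and these differed widely in level. Amhr2, the specific receptor of anti-Müllerian hormone, had medians of only 0.164 CPM in the single-end and 0.217 in the paired-end run, and the activin receptor gene Acvr1c of 0.0148 and 0.0277. Kit, the receptor of Kitl, was 469 ± 3.82 CPM in wild type, 353 ± 29.2 in Dicer dMT/dMT and 276 ± 34.2 in Dicer SOM/SOM, a fall by 0.76 on the log2 scale in the last (adjusted p = 0.0003, edgeR). The inhibin co-receptor Tgfbr3 fell by 0.90, the activin receptors Acvr1b and Acvr2b by 0.81 and 0.73, and Bmpr1a, through which anti-Müllerian hormone can signal, by 0.63 (edgeR, adjusted p = 6.97e-05, 0.000999, 0.00264 and 0.0311). In all, 5 of the 19 tested partner genes were lower and 1, Esr2, was higher in Dicer SOM/SOM, or 31.6% called against 28.6% of all genes, a share near the background. In the paired-end run 3 of 18, or 16.7%, were called, Kit, Tgfbr3 and Bmpr1a, each lower, in RNAi mutants (10.7% of all genes) and in double mutants (21.2% of all genes). Kit was 558 ± 80 CPM in the controls, 345 ± 26.7 in RNAi mutants and 310 ± 32.3 in double mutants (edgeR, adjusted p = 0.0114 and 0.000293). Between Dicer SOM/SOM and Dicer dMT/dMT 2 of 19 were called (10.5%, against 7.35% of all genes), Tgfbr3 lower and Esr2 higher. Between double and RNAi mutants none of 18 was called, where 0.314% of all genes were.

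Markers of other cells were measured in the same samples. The 9 theca and stroma genes summed to 1.73 to 3.08 CPM in wild type, 1.61 to 2.91 in Dicer dMT/dMT and 0.971 to 1.26 in Dicer SOM/SOM, and to 0.846 to 4.15 in the controls, 0.868 to 1.3 in RNAi mutants and 1.79 to 4.62 in double mutants, with Insl3 at or near 0. The Dicer SOM/SOM sums lay below those of wild type, the Dicer dMT/dMT sums overlapped wild type, and the RNAi mutant sums lay inside the control range. In Dicer SOM/SOM 1 of the 4 tested genes, Pdgfra, was called lower, where 28.6% of all genes were called. That call held in the reported fit and in 3 of 15 alternatives. In RNAi mutants none of 5 was called, where 10.7% of all genes were. Of the 5 endothelium markers 4 were tested, and 1, Kdr, was called lower in Dicer SOM/SOM, RNAi mutants (a call that held in 7 of 17 alternatives) and double mutants. Of all genes, 28.6%, 10.7% and 21.2% were called in these comparisons. The endothelium sum, 64.3 to 101 CPM, was mostly Pecam1, while Cdh5 had medians of 0.0102 and 0.0404 CPM. Of the 10 blood and leukocyte genes, Ms4a1 made up most of the sum of 38.1 to 68.6 CPM, and Ptprc and all 4 globin genes had medians at or near 0. The macrophage gene Cd68 was higher in Dicer SOM/SOM (16.1 ± 14.2 against 2.52 ± 1.47 CPM, a log2 fold change of 2.56 that was 1.64 without replicate 3), RNAi mutants (mean 5.65 against 1.67 CPM) and double mutants (7.47 ± 1.06), in each case by edgeR (adjusted p = 0.00653, 0.000427 and 1.08e-05). Ms4a1 was called lower in Dicer SOM/SOM, so that 2 of the 3 blood and leukocyte genes tested were called there, where 28.6% of all genes were. In RNAi mutants 1 of 3 was called, where 10.7% of all genes were, and in double mutants 2 of 3, where 21.2% were. Ptprc, at most 0.44 CPM in any paired-end sample, was called higher in double mutants, a call that held in 5 of 11 alternatives. It was at 0 in all controls, so that mutant samples alone let it pass the filter on low counts, and nothing is read from its call. Of the 12 oocyte genes, Kit and Mos were called lower in each of the 3 comparisons with controls, Nobox was higher in Dicer SOM/SOM and Dppa3 lower in double mutants. The oocyte genes called were thus 25% in Dicer SOM/SOM, 16.7% in RNAi mutants and 25% in double mutants, against 28.6%, 10.7% and 21.2% of all genes. The Mos call in Dicer SOM/SOM held in 4 of 15 alternatives, and the Kit call in RNAi mutants held in 13 of 17, being lost with the replicate block, with only animals under 20 weeks and without either RNAi mutant. The part of these cells, and of age and depth, in the levels of the 10 members was not tested.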

How the data were processed

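Per the labels and the study's methods, RNA-seq libraries from fully-grown GV oocytes (Ovation RNA-seq V2 kit) were sequenced in a single-end and a paired-end run of 11 samples each. The authors mapped reads with STAR 2.5.3a to mm10, kept multimapping reads and counted them with featureCounts on GENCODE M15 genes, without strand and as fractions. The deposited values are therefore expected counts (estimated counts), raw and not normalized, so that a gene with an overlapping or near-identical partner can share reads. A second deposited table, of repeats, was not used here.

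Counts were rounded and each run was fitted on its own with edgeR 4.0.16 (R 4.3.3), with TMM scaling, filterByExpr over groups of at least 2 samples (minimum count 10, minimum total 15) and the quasi-likelihood test with Benjamini-Hochberg adjustment over all genes tested. A gene was called at an adjusted p under 0.05. Dicer dMT/WT, with 1 sample, was not fitted, and the piRNA mutant, with 1 sample, was fitted but not tested. SD is over samples, and 0.05 CPM was added before the log in exact two-sided permutation tests. Poisson intervals and the floor of 3 counts cover counting error only, whereas intervals of ± 1.96 SE rest on the spread between samples. The fits were tested on simulated data, with 100 genes changed by 1 and 100 by 2 on the log2 scale. For Dicer SOM/SOM against wild type 48 and 73 of these were called, and 5.47% of all calls were false. For RNAi mutants against controls 24 and 66 were called, and 1.1% of all calls were false. A gene that was not called may therefore still have changed.

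The members and all gene lists were chosen with earlier results of these data known, and the members were selected partly on Has2 in Dicer dMT/dMT. For that contrast no p is therefore given for the members, and nothing is read from their calls. Genes named besides the members are those called in a list, up to 4 per list and comparison by size of change, overlapping genes, the 3 genes most like Has2 and the 2 highest other members, and a few single genes of a list picked after their levels were seen. Gene lists were set from general knowledge and hold 1 gene, Tmem2, that was not matched. Alternatives were DESeq2 1.42.0, library totals, no filter, only the compared groups, a replicate block, an age term, younger animals only, and each sample left out in turn.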

Additional observations from a re-analysis of the deposited data

How the results depend on the processing

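No called fold change of a member turned its direction under an alternative, but several calls rested on 1 sample. Has2 was called in 12 of 15 alternatives between Dicer SOM/SOM and wild type and in 11 of 17 between RNAi mutants and controls, Fshr in 14 of 15 and Cyp19a1 in 5 of 15 between Dicer SOM/SOM and wild type. With only the compared groups, 2 members were called between Dicer dMT/dMT and wild type instead of 1 (Has2 and Inhba), a contrast used to select the genes, from whose calls nothing is read. The single call between RNAi mutants and controls went to 0 with age as a term and with only animals under 20 weeks, and the latter gave 1 call, Inhba, between double mutants and controls. Leaving out 1 sample at a time gave 1 to 2 calls for Dicer dMT/dMT, 1 to 3 for Dicer SOM/SOM against wild type and 0 to 1 for RNAi mutants. The cause was not tested.

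Same-numbered samples gave no sign of deviating together (residual correlations of -0.0251 to 0.054 in the single-end and -0.0691 to 0.177 in the paired-end run). With so few samples per group these values cannot exclude a pairing. With the replicate block, 0 members were called between RNAi mutants and controls (Has2 -2.66, adjusted p = 0.122, edgeR), and 1, 3, 0, 0 and 0 in the other 5 comparisons, as without it, and Inhba was -0.18 between double mutants and controls and Inha 0.034 between double and RNAi mutants.

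Some uncalled log2 fold changes changed sign. With only animals under 20 weeks, Amh was 0.084, Inha 0.36 and Cyp19a1 0.0084 in RNAi mutants against controls, Has2 was 0.023, Inha 0.68 and Kitl 0.30 in double mutants against controls, and Inha was 0.32 and Fshr 0.34 between double and RNAi mutants. In the last comparison Fshr was also 0.0058 with DESeq2, 0.02 with library totals and 0.0093 with no filter, and Inha 0.01 with library totals. Leaving out 1 sample at a time gave ranges that crossed 0. Between Dicer dMT/dMT and wild type they were -0.59 to 1.34 for Foxl2, -0.44 to 0.71 for Inha and -0.11 to 0.47 for Npr2. Between Dicer SOM/SOM and wild type they were -1.18 to 0.78 for Foxl2 and -0.65 to 0.64 for Amh. Between Dicer SOM/SOM and Dicer dMT/dMT they were -0.15 to 1.39 for Has2 and -0.088 to 1.30 for Amh. Between RNAi mutants and controls they were -0.42 to 0.23 for Inha, -0.55 to 0.43 for Foxl2 and -0.15 to 0.039 for Cyp19a1. Between double mutants and controls they were -0.33 to 0.14 for Inha, -0.10 to 0.39 for Inhba and -0.13 to 0.69 for Npr2. Between double and RNAi mutants they were -0.30 to 0.35 for Inha, -0.22 to 0.28 for Fshr and -1.63 to 0.046 for Npr2.

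Depth limits the lowest genes: Has2 rested on 2 to 16 counts in Dicer dMT/dMT and on 2 counts in 1 Dicer SOM/SOM and 1 RNAi mutant sample.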
